A study of Sus scrofa with 23 samples.

Results

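The genes described here are 42 genes of the cell division cycle, out of 26687 genes with a symbol in the deposited transcript table, measured by bulk RNA-seq in the kidney cortex of 23 newborn pigs. They were chosen by name as a readout of growth: MKI67 and TOP2A, the cyclins of each phase, the genes that license and copy DNA, and the kinases, motors and centromere proteins of mitosis. The estimated read counts of all transcripts of a symbol were summed. The list was drawn up with the lower level of CCNB3 in the CF libraries already known, so values of CCNB3 in CF against the others are given as a description without a test, and counts of genes are over the other 41. All 42 passed the filter on low counts, which kept 20921 genes.

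The cortex came from 6 wild-type pigs (WT), 6 pigs with 1 disrupted allele of the chloride and bicarbonate channel gene CFTR (CFTR+/-, HET) and 11 pigs with 2 disrupted alleles (CFTR-/-, CF), all newborn and with no treatment named in the labels. Non-CF stands for the 12 WT and HET pigs together. The pigs are not an inbred strain, their litters are not given for these libraries, and the CFTR alteration is present in every cell from conception. Libraries were stranded and depleted of ribosomal RNA, and held 32901281 to 52952273 estimated counts. CFTR itself read 2.26 ± 0.794 CPM (counts scaled to a common library size, mean ± SD, n = 6) in WT, 12.6 ± 2.76 (n = 6) in HET and 19.9 ± 3.21 (n = 11) in CF, an order opposite to the number of intact alleles. The groups below are therefore those of the libraries labelled WT, HET and CF, and every direction given is that of the labels as deposited. Why CFTR RNA stood in this order was not tested. On the first axis of a multidimensional scaling plot, which carried 17.2% of the variance, the libraries parted by EIF1AY, a gene of the Y chromosome: the 13 with at least 10 CPM of it lay above 0 and the 10 with less lay below. EIF1AY was present in 2 of 6 WT, 5 of 6 HET and 6 of 11 CF libraries, so HET against WT is in large part also a comparison of libraries with and without EIF1AY. On the second axis, which carried 10.6%, libraries stood apart by pig number: pigs 1 to 6 and 12 to 18 (block A, 13 libraries) against pigs 7 to 11 and 19 to 23 (block B, 10 libraries). Both blocks hold all 3 labels, and results are given within them where they differ. The cortex markers were present: LRP2, the proximal tubule endocytic receptor, read 3520 to 8190 CPM, and the nephron progenitor genes SIX2 and CITED1 were low at 0.295 to 1.32 CPM.

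A dividing cell passes from growth (G1) into DNA synthesis (S), a second gap (G2) and mitosis (M). D cyclins open the path in G1 in response to growth signals, and E2F factors then switch on cyclin E, the helicase subunits MCM2 to MCM7 and the enzymes that make nucleotides. Cyclin A, the B cyclins and CDK1 drive entry into mitosis, where Aurora and Polo kinases, kinesins and centromere proteins separate the chromosomes. Many mitotic genes share 2 promoter elements, the CCAAT box bound by NF-Y and the cell cycle homology region (CHR) bound by the DREAM and MuvB complexes, while S phase genes often carry E2F sites. In newborn pig kidney the outer cortex is still forming nephrons, and tubules are growing. In bulk cortex, fewer cells of a dividing type and less RNA per cell cannot be told apart.

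The 120 bases before the annotated gene start are shown for 6 members, read from RefSeq Sscrofa11.1, because they show how the mitotic promoters resemble each other and how that of CCNB3 compares. Capitals mark a match on either strand, and each run is written 5′ to 3′ along the gene's strand. The CHR was searched as TTTGAA and as the variant with C in the middle, TTCGAA. The CCAAT box was searched by the letters of its name. For E2F the first sequence was TTTCCCGC, the second TTTGGCGC, the third TTTCGCGC and the last TTTGCCGC.
MKI67 (chr14:137296313-137296432, minus strand): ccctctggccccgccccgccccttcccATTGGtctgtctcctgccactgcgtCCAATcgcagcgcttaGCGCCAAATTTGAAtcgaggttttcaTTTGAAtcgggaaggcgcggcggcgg
CDK1 (chr14:64233825-64233944, plus strand): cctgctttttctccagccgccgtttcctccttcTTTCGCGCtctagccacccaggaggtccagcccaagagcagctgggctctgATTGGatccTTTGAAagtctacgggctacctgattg
CCNB1 (chr16:47338119-47338238, plus strand): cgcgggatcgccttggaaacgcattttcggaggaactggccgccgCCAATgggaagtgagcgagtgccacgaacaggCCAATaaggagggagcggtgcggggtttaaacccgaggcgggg
CCNB2 (chr1:112942219-112942338, minus strand): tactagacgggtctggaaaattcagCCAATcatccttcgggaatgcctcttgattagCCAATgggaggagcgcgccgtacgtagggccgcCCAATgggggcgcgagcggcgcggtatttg
CCNB3 (chrX:43922609-43922728, plus strand): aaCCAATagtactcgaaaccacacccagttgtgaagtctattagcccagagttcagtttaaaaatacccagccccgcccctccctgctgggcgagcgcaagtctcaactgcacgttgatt
MCM6 (chr15:15923518-15923637, plus strand): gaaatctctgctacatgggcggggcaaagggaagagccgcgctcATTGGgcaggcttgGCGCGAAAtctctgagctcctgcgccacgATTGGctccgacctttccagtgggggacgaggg

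The windows of MKI67 and CDK1 hold all 3 kinds of motif, those of CCNB1 and CCNB2 hold CCAAT boxes alone within these 120 bases, and that of MCM6 holds an E2F sequence between 2 CCAAT boxes. CCNB3 has a single CCAAT, 118 bases before its start. The printed runs end at the start, and matches that cross it are not in capitals: CCNB2 has a CHR and CDK1 a reversed CCAAT that begin 4 bases before the start, and CCNB3 has a reversed CCAAT that begins 3 bases before and another CCAAT after it. On the other strand the CCAAT box appears as ATTGG, and in MKI67 a reversed E2F sequence shares no base with the CHR that follows it. In windows from 250 bases before to 50 after the start, a CHR was found in 14 of the 22 mitosis genes (63.6%) and in 3 of the 16 replication genes (18.8%), against 14.8% of 20890 promoters of tested genes. A CCAAT box was found in 19 of the 22 mitosis genes (86.4%) and 9 of the 16 replication genes (56.2%), against 35.1% of all. Both motifs together were in 11 mitosis genes (50%), in 3 replication genes (18.8%) and in 5.74% of all promoters. An E2F sequence was in 4 of each (18.2% and 25.0%) against 3.37%, and of the 3 D cyclins, 1 held a CHR and none the other motifs. A match in letters is a description of the sequence and not evidence of binding.

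The first question was whether the growth genes differ between CF and non-CF cortex. Single genes passed adjustment over all genes by DESeq2 and not by the other tests. By the quasi-likelihood test of edgeR with p adjusted by the Benjamini-Hochberg method, 0 of the 41 had an adjusted p under 0.05, where 0.349% of all genes did. DESeq2 called 5, all lower (CDC6, TYMS, CHEK1, CENPE and TPX2), where it called 515 of 20921 genes (2.46%), limma-voom 0, where it called 46 genes (0.22%), and the exact Mann-Whitney U test 0, where it called 47 of 21937 (0.214%). At an unadjusted p under 0.05 in edgeR, 28 of the 41 were lower in CF and 0 were higher, where 6.36% of all genes were lower. The log2 fold change was below 0 in 40 of the 41, against 50.2% of all genes, and its median was -0.27, or 82.9% of the non-CF level, where the median over all genes was 0.00. At least 8 of the 11 CF libraries lay under the non-CF median in 36 of the 41, against 23.7% of all genes. In no member were all CF libraries under all non-CF libraries, which was so of 0% of all genes too. The genes vary together across pigs, so the 41 are not independent observations, and the list was chosen with results of these data known.

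The genes were described by phase. E2F1, CDC6, CDT1, CCNE1 and CCNE2, which fire and license replication, and MCM2 to MCM7, PCNA, TYMS, RRM1, RRM2 and CHEK1 make a group of 16, with a median log2 fold change of -0.38 in CF against non-CF (76.8% of the non-CF level). All 16 were below 0, against 50.2% of all genes, and 14 were lower at an unadjusted p under 0.05, against 6.36%. The 22 mitosis genes, counting MKI67 and TOP2A, had a median of -0.25 (84.1%). All 22 were below 0 and 14 were lower at an unadjusted p under 0.05, against the same 50.2% and 6.36% of all genes. The order of the groups was not the same in the blocks of pig numbers: the medians were -0.43 for replication and -0.21 for mitosis in block A, and -0.27 and -0.29 in block B. The 3 D cyclins had a median of -0.06, and 0 of them passed even without adjustment.

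**Figure D1:**
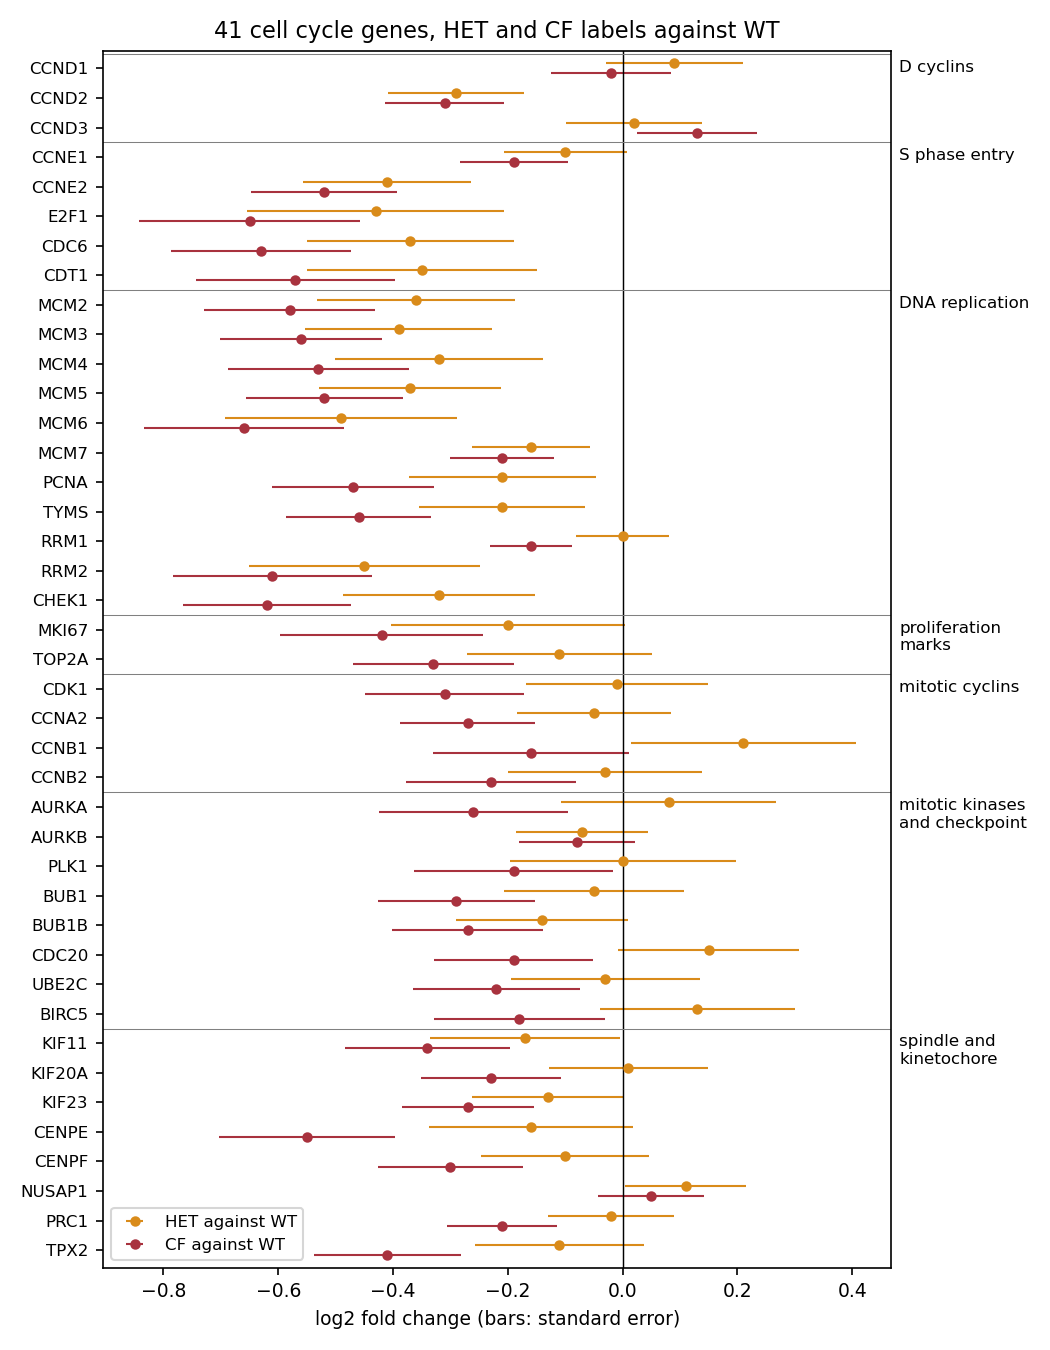
Log2 fold change (x axis) of the 41 genes other than CCNB3, in rows by role, for HET against WT and for CF against WT, with bars for 1 standard error. Replication genes lie left of 0 in both comparisons, with medians of -0.36 and -0.55, while mitosis genes lie near 0 in HET, median -0.04, and left of 0 in CF, median -0.27.

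MKI67, the nuclear protein Ki-67 that marks cycling cells, ranged from 67.9 to 164 CPM in WT with a median of 92.9, from 69.1 to 147 in HET with a median of 75.7, and from 60.7 to 106 in CF with a median of 75.2. The 3 ranges overlap from 69.1 to 106 CPM, and the libraries above that are labelled WT or HET. CF against non-CF, it had a log2 fold change of -0.32 (SE 0.148, adjusted p = 0.326). TOP2A, the topoisomerase that untangles DNA before mitosis, ranged from 97.2 to 192 CPM in WT, 81.1 to 182 in HET and 89.8 to 136 in CF. Its log2 fold change was -0.27 (SE 0.116, adjusted p = 0.28). In both genes the CF libraries spread less than the others, with an SD of 14.8 CPM for MKI67 and 13.5 for TOP2A against 32.7 and 33.5 in non-CF.

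**Figure D2:**
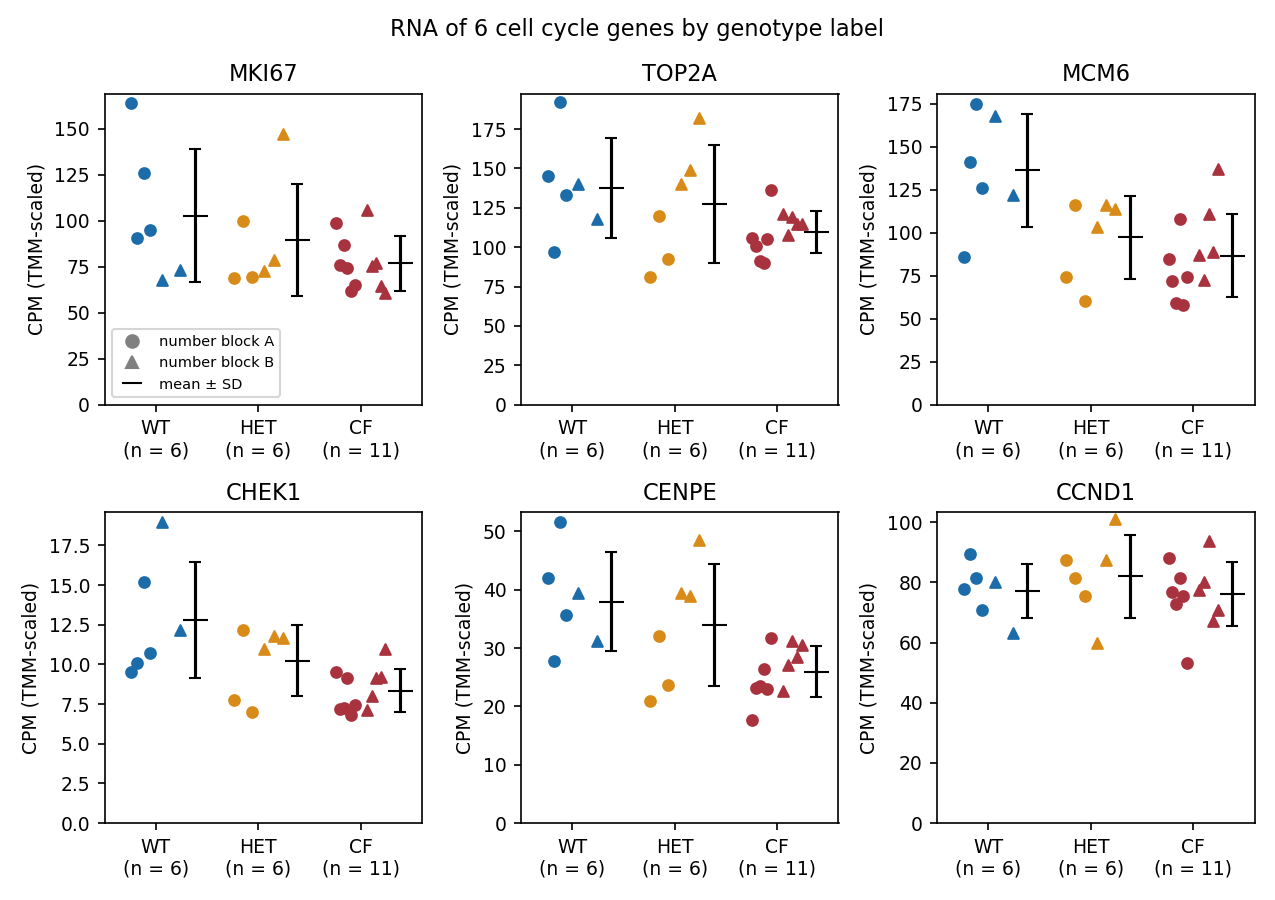
CPM (y axis, from 0) of MKI67, TOP2A, MCM6, CHEK1, CENPE and CCND1 in each library labelled WT, HET and CF, with the mean and SD as bars; circles are block A and triangles block B. The CF points of CHEK1 reach 11.0 and those of CENPE 31.8, inside the range of the other labels, and the means of CCND1 in the 3 labels lie between 76.1 and 82.1.

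Among the D cyclins, which carry growth signals to CDK4 and CDK6, CCND1 read 77.1 ± 9.13 CPM in WT, 82.1 ± 13.8 in HET and 76.1 ± 10.7 in CF. Its log2 fold change in CF against non-CF was -0.06 (SE 0.0852, adjusted p = 0.805), so the difference was smaller than its error. CCND3 had 0.12 (SE 0.0842, adjusted p = 0.58) and was the 1 member above 0. CCND2 was the D cyclin with the highest level per length, 59.1 TPM in WT (a level corrected for transcript length), and read 58.0 ± 7.71 CPM in WT, 47.5 ± 5.16 in HET and 46.8 ± 8.49 in CF. Every HET library lay under the WT median of 57.6 CPM, but the ranges overlapped from 46.6 to 53.7. The log2 fold change of HET against WT was -0.29 (SE 0.119, p = 0.0234, adjusted p = 0.593 by edgeR's test), and it was -0.41 in block A and -0.04 in block B of the pig numbers.

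Of the genes that commit a cell to S phase, E2F1, the transcription factor released when RB is phosphorylated, read 22.9 ± 5.03 CPM in WT, 16.9 ± 4.96 in HET and 14.5 ± 4.29 in CF. It was among the 3 members whose CPM varied most over the 23 libraries, with a coefficient of variation of 32.6%, beside CCNB3 at 33.0% and MCM6 at 32.1%. In TPM the 3 were MCM6 at 36.3%, CCNB3 at 34.7% and CHEK1 at 34.1%, with E2F1 at 33.8%. CDC6, which loads the MCM helicase at origins, ranged from 5.85 to 11.5 CPM in WT (median 9.13), 4.36 to 9.83 in HET (median 6.99) and 4.13 to 7.73 in CF (median 5.75). Its log2 fold change was -0.45 in CF against non-CF (SE 0.139, adjusted p = 0.124) and -0.63 in CF against WT (SE 0.156, adjusted p = 0.0656). CCNE2, a cyclin E that activates CDK2, lay under the WT median in 6 of 6 HET libraries and under the non-CF median in 11 of 11 CF libraries. It read 7.84 ± 1.75 CPM in WT, 5.89 ± 1.3 in HET and 5.45 ± 0.52 in CF, and its HET against WT difference of -0.41 (SE 0.146, adjusted p = 0.541) had the smallest p of the members in that comparison, with -0.67 in block A and -0.10 in block B. The other cyclin E, CCNE1, was among the steadiest members in CPM, with a coefficient of variation of 12.7% and a log2 fold change of -0.14 (SE 0.0777, adjusted p = 0.423).

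The MCM subunits, which form the ring that unwinds DNA, moved as a set across pigs: the median Spearman correlation among their 15 pairs was 0.82 over the 23 libraries. MCM6 ranged from 85.9 to 175 CPM in WT with a median of 134, from 60.5 to 116 in HET with a median of 109, and from 57.9 to 137 in CF with a median of 84.7. All 6 HET libraries lay under the WT median, while the lowest WT library lay inside the HET range and the other 5 above it. The log2 fold change was -0.49 in HET against WT (SE 0.202, adjusted p = 0.593) and -0.43 in CF against non-CF (SE 0.16, adjusted p = 0.209). MCM2, MCM3, MCM4 and MCM5 had log2 fold changes of -0.41, -0.38, -0.38 and -0.35 in CF against non-CF, with adjusted p from 0.144 to 0.194. MCM7 had the smallest, -0.13 (SE 0.0769, adjusted p = 0.491), and it shares its locus with AP4M1, read at 24.9 CPM on average.

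PCNA, the sliding clamp of DNA polymerase, had a log2 fold change of -0.37 (SE 0.12, adjusted p = 0.143) and TYMS, which makes thymidylate, of -0.36 (SE 0.108, adjusted p = 0.111). TYMS ranged from 14 to 21 CPM in WT, 9.98 to 17.6 in HET and 9.07 to 15.3 in CF. CHEK1, the kinase that guards stalled replication forks, ranged from 9.5 to 19 CPM in WT (median 11.4), 7.03 to 12.2 in HET (median 11.3) and 6.81 to 11.0 in CF (median 7.99). Most CF libraries lay under most of the others, and the highest CF library lay under the WT and HET medians. Its log2 fold change was -0.46 in CF against non-CF (SE 0.129, p = 0.00129, adjusted p = 0.0905) and -0.62 in CF against WT (SE 0.146, adjusted p = 0.0559), the lowest adjusted p of any member in that comparison by edgeR's test. The subunits of ribonucleotide reductase differed from each other: RRM2, made in S phase, had -0.40 (SE 0.157, adjusted p = 0.242) with a coefficient of variation of 31.9% over libraries, while RRM1, at 10.7% the steadiest of the 42 in CPM, had -0.16 (SE 0.0578, adjusted p = 0.208). In TPM RRM1 had 15.6%, and CCND3 was the steadiest at 9.87%.

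Of the mitotic cyclins and their kinase, CDK1 read 20 ± 4.17 CPM in WT, 19.9 ± 6.07 in HET and 16.2 ± 1.62 in CF. All 11 CF libraries lay under the non-CF median of 20 CPM, with a log2 fold change of -0.30 (SE 0.114, adjusted p = 0.215). CCNA2 had -0.25 (SE 0.0959, adjusted p = 0.236), also with 11 of 11 CF libraries under the non-CF median. CCNB1 had -0.27 (SE 0.142, adjusted p = 0.411) and CCNB2 -0.22 (SE 0.12, adjusted p = 0.43).

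CENPE, the kinesin that carries chromosomes to the spindle equator, had the largest difference of the mitosis genes. It ranged from 27.7 to 51.6 CPM in WT (median 37.5), 20.9 to 48.5 in HET (median 35.4) and 17.7 to 31.8 in CF (median 26.4). The CF libraries lay in the lower part of the range of the others, with the lowest CF library below it. The log2 fold change was -0.47 (SE 0.129, p = 0.00123, adjusted p = 0.0889), the lowest adjusted p of any of the 41 in CF against non-CF by edgeR's test. TPX2, which activates Aurora A on the spindle, read 38.4 ± 7.54 CPM in WT, 35.7 ± 9.41 in HET and 29.0 ± 3.59 in CF, a log2 fold change of -0.35 (SE 0.106, adjusted p = 0.115).

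The remaining named mitosis genes had smaller differences. NUSAP1, which binds spindle microtubules, read 36.3 ± 4.44 CPM in WT, 39.2 ± 7.14 in HET and 37.5 ± 3.51 in CF, a log2 fold change of -0.01 (SE 0.0761, adjusted p = 0.979). Its annotated interval overlaps that of OIP5, read at 162 CPM on average, and the setting for strand in the counting is not given in the sources used here. AURKB, the kinase of the chromosomal passenger complex, had -0.05 (SE 0.0822, adjusted p = 0.859), and BIRC5, survivin of the same complex, -0.24 (SE 0.122, adjusted p = 0.383). PLK1, the Polo kinase, had -0.19 (SE 0.141, adjusted p = 0.593) and PRC1, which bundles the central spindle, -0.20 (SE 0.0785, adjusted p = 0.241).

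A further question was whether the libraries labelled HET differ from those labelled WT, in which CFTR RNA read 12.6 and 2.26 CPM. HET against WT, 0 of the 41 had an adjusted p under 0.05, where 0.00478% of all genes did, and the lowest adjusted p was 0.541 by edgeR's test. DESeq2 and limma-voom called 0 too, where they called 33 genes (0.158%) and 1. At an unadjusted p under 0.05, 7 were lower and 0 higher, against 3.88% of all genes lower, and the log2 fold change was below 0 in 32, against 51.2% of all genes. The replication group held 6 of the 7, the other being CCND2, and had a median of -0.36 with all 16 below 0. The mitosis group had a median of -0.04, with 15 of 22 below 0 and 0 at an unadjusted p under 0.05. CF against WT, the replication group had a median of -0.55 and the mitosis group -0.27, with 39 of the 41 below 0, against 50.4% of all genes, and 27 lower at an unadjusted p under 0.05, against 6.51%. None of the 41 passed adjustment there, where 0.349% of all genes did, while DESeq2 called 13, all lower, where it called 576 of 20908 genes (2.75%). Limma-voom called 0 of the 41, where it called 66 genes (0.315%). The count of the 41 called was 8 with the number block as a term (0.889% of all genes), 8 with upper-quartile factors (0.664%) and 6 with library size alone (0.597%). CF against HET, the medians were -0.19 and -0.22, with 40 of the 41 below 0, against 48.6% of all genes, 8 lower and 0 higher at an unadjusted p under 0.05, against 4.34% lower and 9.89% in either direction, and 0 after adjustment by edgeR, DESeq2 or limma-voom, where 0% of all genes passed by edgeR and limma-voom and 65 genes (0.311%) by DESeq2. The 3 comparisons share libraries, so they are not separate evidence. Mean CPM stood in the order WT, HET, CF in 32 of the 41, in all 16 replication genes and in 15 of the 22 mitosis genes, against 17.5% of all genes. Within blocks the mitosis genes did not keep this order: HET was below WT in 0 of the 22 in block B, and CF was below HET in 7 of the 22 in block A.

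**Figure D3:**
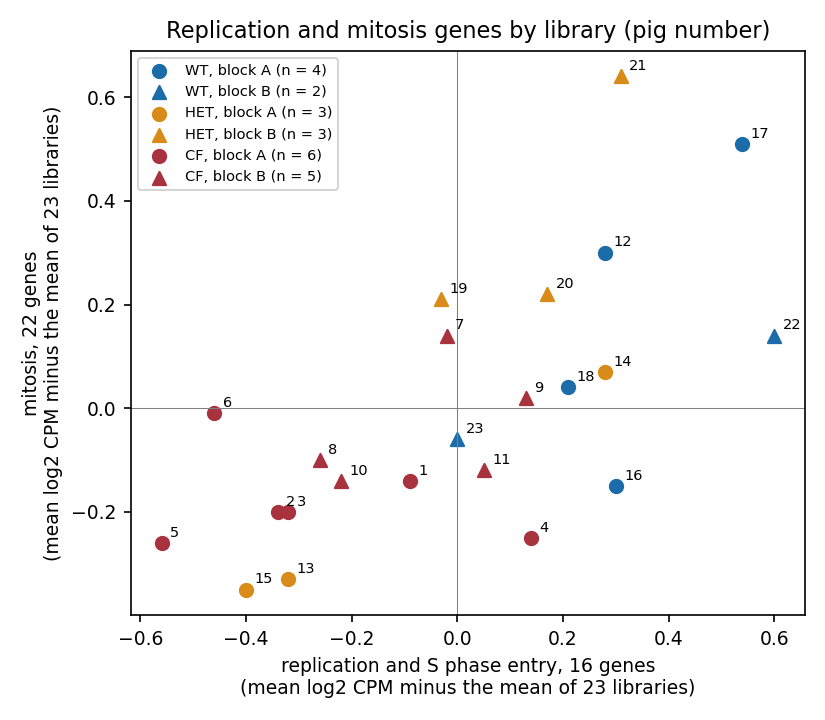
Mean log2 CPM of the 16 replication genes (x axis) against that of the 22 mitosis genes (y axis) in each library, each gene centred on its mean over the 23 libraries, with pig numbers beside the points and colours for WT, HET and CF. HET pigs 13 and 15 lie low on both axes, HET pig 21 and WT pig 17 lie high on both, and the CF points spread along the x axis within a narrow band of y.

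Centred on the mean of all libraries, the replication genes stood at 0.32 ± 0.22 log2 units in WT (n = 6), 0.00 ± 0.31 in HET (n = 6) and -0.18 ± 0.24 in CF (n = 11). The mitosis genes stood at 0.13 ± 0.24, 0.08 ± 0.37 and -0.11 ± 0.12. The labels overlap on both measures: WT ran from 0.00 to 0.60 for replication, HET from -0.40 to 0.31 and CF from -0.56 to 0.14. The 2 measures parted in single pigs. WT pig 22 stood at 0.60 for replication and 0.14 for mitosis, and WT pig 16 at 0.30 and -0.15. HET pig 21 stood at 0.31 and 0.64.

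Within the blocks of pig number, HET against WT was below 0 in most members in one block and above 0 in most in the other, but the blocks differ in EIF1AY too. In block B all 3 HET libraries had it and both WT libraries lacked it, so label and EIF1AY cannot be told apart there, while block A held both kinds in each label. In block A, HET against WT, 40 of the 41 genes were below 0, against 51.9% of all genes, with a median of -0.42, and 20 had an unadjusted p under 0.05, against 4.62% of all genes. In block B, 14 of the 41 were below 0, against 48.5% of all genes, with a median of 0.18, and 6 were higher and 0 lower at an unadjusted p under 0.05, where 4.59% of all genes were higher and 3.29% lower. The mitosis genes carried this: 22 of 22 were below 0 in block A, median -0.41, and 0 of 22 in block B, median 0.31. The replication genes kept their sign in most, with 16 of 16 below 0 in block A (median -0.45) and 13 of 16 in block B (median -0.16). After adjustment 0 of the 41 passed in either block, where 0.0665% and 0.0862% of all genes did. Block B holds 2 WT and 3 HET libraries, and block A 4 and 3.

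The difference between the blocks was tested as an interaction term, an alternative added after the values within blocks had been seen. It was above 0 in 22 of the 22 mitosis genes, with a median of 0.74, and 18 had an unadjusted p under 0.05, against 4.61% of all genes. None passed adjustment, where 0.134% of all genes did. The lowest adjusted p was 0.0922, for PLK1, with a log2 difference of 1.37 (SE 0.316) by edgeR's test. With EIF1AY as a covariate, also added later, the term was above 0 in the same 22 of 22, with a median of 0.68, and 15 had an unadjusted p under 0.05, against 3.51% of all genes. None passed, where 0.0382% of all genes did, and PLK1 had 1.24 (SE 0.333, adjusted p = 0.307). That fit takes the difference by EIF1AY to be equal in every label and block. PLK1 read 8.75 ± 2.18 CPM in the WT and 5.80 ± 0.55 in the HET libraries of block A, and 5.66 ± 0.268 and 9.68 ± 2.86 in those of block B. MKI67 read 119 ± 34.0 in WT and 79.6 ± 17.9 in HET of block A, and 70.7 ± 3.93 and 99.5 ± 41.4 in block B. In both genes the order of the WT and HET means was turned between the blocks. For MKI67 in block B this rested largely on HET pig 21, at 147 CPM. HET pigs 19 and 20 read 72.7 and 78.8, against 67.9 and 73.5 in WT pigs 22 and 23. The CF means of the blocks lay close together, at 6.38 and 7.21 CPM for PLK1 and 77.1 and 76.5 for MKI67.

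CF against non-CF held its direction in both blocks. In block A, 39 of the 41 were below 0, against 50.1% of all genes, with a median of -0.23, 17 lower at an unadjusted p under 0.05, against 3.29%. None passed adjustment, where 0% of all genes did. In block B, 40 were below 0, against 47.1%, with a median of -0.28, 16 at an unadjusted p under 0.05, against 8.88%. CENPE alone passed adjustment in block B, at an adjusted p of 0.0475 by edgeR's test, where 2.27% of all genes passed. The test of the CF difference between blocks gave 0 of the 41 at an adjusted p under 0.05, where 0.0191% of all genes passed, and 0 at an unadjusted p under 0.05, where 10.1% did and 5.65% had the more negative value in block B. The term was below 0 in 21 of the 41, against 49.9% of all genes. Split by label, CF against HET had 22 of the 41 below 0 in block A (median -0.04, against 48.3% of all genes) and 40 in block B (median -0.32, against 46.8%). At an unadjusted p under 0.05, 0 were lower in block A, against 1.57% of all genes, and 20 in block B, against 9.22%. None passed adjustment in block A, where 0% of all genes did, and 4 mitosis genes passed adjustment in block B: TOP2A at -0.44, CENPE at -0.59, CENPF at -0.44 and TPX2 at -0.47, where 2.56% of all genes passed. CF against WT had 39 below 0 in block A (median -0.43, against 49.5% of all genes) and 34 in block B (median -0.15, against 47.6%), with 29 and 8 lower at an unadjusted p under 0.05, against 5.62% and 5.16%. None passed adjustment in either, where 0.157% and 0.268% of all genes did.

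CF against non-CF was also described within the libraries with and without EIF1AY. The split was added after values had been seen, and the non-CF side is not alike: 2 WT and 5 HET libraries with EIF1AY, and 4 WT and 1 HET without. Among the 10 libraries without EIF1AY, 37 of the 41 genes were below 0, against 50% of all genes, and 21 were lower at an unadjusted p under 0.05, against 8.68%. The replication genes had a median of -0.69 there and the mitosis genes -0.17. After adjustment 5 were called, where 0.429% of all genes were: MCM2, MCM3, MCM4, MCM5 and MCM6, with log2 fold changes of -0.70 to -0.88 and adjusted p of 0.00999 to 0.0392 by edgeR's test. MCM2 read 43.3 to 56.0 CPM in the 5 CF libraries, 72.6 to 102 in the 4 WT libraries and 86.3 in the HET library, so CF lay under the others.

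Among the 13 libraries with EIF1AY, 39 of the 41 were below 0, against 51.8%, and 9 were lower at an unadjusted p under 0.05, against 3.81%. The replication genes had a median of -0.15 and the mitosis genes -0.33, and 0 passed adjustment, where 0% of all genes did. Here MCM2 read 43.4 to 87.3 CPM in CF, 51.1 to 91.0 in HET and 87.5 to 104 in WT. The means were 68.6 in CF, 66.6 in HET and 95.6 in WT, so CF overlapped HET and lay under WT. The difference between the 2 kinds of library, tested as an interaction, was above 0 in all 16 replication genes, with a median of 0.46 and 8 at an unadjusted p under 0.05, against 4.39% of all genes. None passed adjustment, where 0% of all genes did, and the lowest adjusted p of a member was 0.709 by edgeR's test. With HET as a further term the median was 0.37, 15 of 16 were above 0 and 3 had an unadjusted p under 0.05, against 5.78%, again with 0% of all genes past adjustment. With EIF1AY as a covariate instead, over all 23 libraries, the medians of CF against non-CF were -0.39 for replication and -0.25 for mitosis, and those of HET against WT -0.41 and -0.11, with 0 of the 41 called in either.

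**Figure D4:**
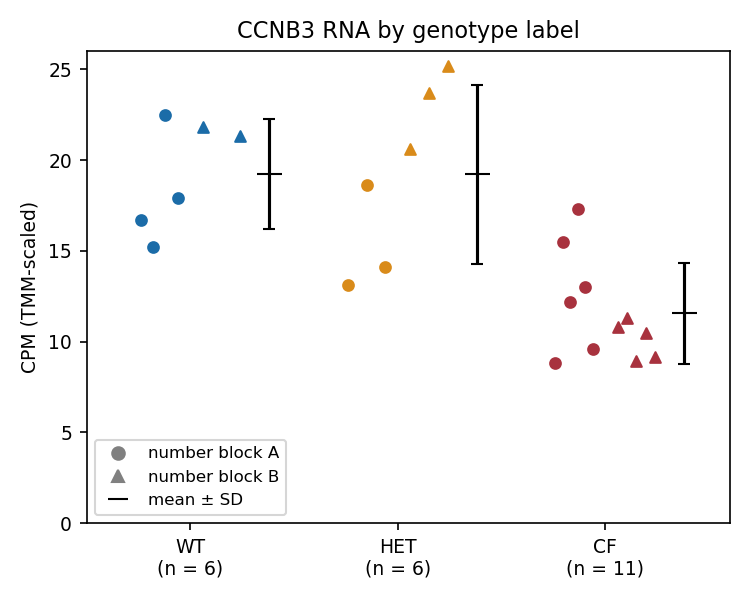
CPM of CCNB3 (y axis, from 0) in each library labelled WT, HET and CF, with the mean and SD; circles are block A and triangles block B. The CF libraries run from 8.84 to 17.3 and the others from 13.1 to 25.2, and in block B the CF libraries do not overlap the others, while WT and HET do.

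CCNB3, the B cyclin known for its role at anaphase of meiosis in the egg, is the member whose lower level in CF was known when the list was drawn up. The gene lies on the plus strand at chrX:43922729-43988939 (Sscrofa11.1). The 6 WT libraries ranged from 15.2 to 22.5 CPM with a median of 19.6, the 6 HET libraries from 13.1 to 25.2 with a median of 19.6, and the 11 CF libraries from 8.84 to 17.3 with a median of 10.8. In 9 of the 11 CF libraries CCNB3 was under the lowest non-CF library, the exceptions being CF pig 2 at 15.5 and CF pig 4 at 17.3 CPM. The log2 fold change of CF against non-CF was -0.73 (SE 0.125), or 60.3% of the non-CF level, a description since it led to the choice of the gene. In block A the CF libraries read 12.7 ± 3.27 CPM and the others 16.9 ± 3.17, with overlap, a log2 fold change of -0.40 (SE 0.162). In block B they read 10.2 ± 1.05 and 22.5 ± 1.88 with none, a log2 fold change of -1.14 (SE 0.0991).

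What the choice did not use was HET against WT, where no difference was detected: both labels read 19.2 CPM on average, with an SD of 4.92 in HET and 3.04 in WT, and the log2 fold change was 0.00 (SE 0.177, adjusted p = 1.0 by edgeR's test). Within blocks it was -0.24 (SE 0.22) in A and 0.12 (SE 0.141) in B. Per length, CCNB3 stood at 5.02 TPM in WT. RefSeq gives it 5 transcripts of 4367 to 4492 bases, and the one of 4433 bases took the largest share of its counts, 43.4% in WT, 46.4% in HET and 35.8% in CF, with mean estimated counts of 362, 412 and 182. The one of 4370 bases read 58.7, 56.3 and 55.9. The transcripts are nearly alike in sequence length and their split is an estimate, so these shares are uncertain. On the opposite strand lies LOC110257723, with 12 to 51 counts a library, 0.739 CPM on average. Of the germ cell and meiosis markers, 5 were tested. In CF against non-CF 1 had an unadjusted p under 0.05 and was higher, against 13.7% of all genes in either direction. SYCP1, SYCP3, DAZL, DDX4, STAG3 and SPO11 summed to 7.64 to 11.8 CPM in WT, 7.67 to 9.98 in HET and 6.95 to 11.8 in CF.

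The gene is on the X chromosome, so its level was set beside EIF1AY too. Among non-CF libraries CCNB3 ran from 13.1 to 25.2 CPM in the 7 with at least 10 CPM of EIF1AY and from 15.2 to 21.8 in the 5 with less. Among CF libraries it ran from 8.84 to 17.3 in 6 and from 9.62 to 15.5 in 5. The ranges with and without EIF1AY overlapped, and in each the CF range began and ended lower.

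Over the 23 libraries the genes whose log2 CPM was most like that of CCNB3 were no members. By Spearman correlation among all genes tested they were CALB1 (0.87), the calcium-binding protein of the distal tubule, ACSL4 (0.86), which activates long-chain fatty acids, STARD5 (0.85), a lipid transfer protein, GPBAR1 (0.82), the bile acid receptor, and UBASH3B (0.82), a phosphatase. All 5 share the difference between CF and non-CF with CCNB3: CALB1 read 174 ± 75.3 CPM in WT, 178 ± 137 in HET and 66.7 ± 38.6 in CF. Within CF libraries alone (n = 11) the correlations were 0.64, 0.73, 0.26, 0.27 and 0.49 in that order, and within non-CF (n = 12) 0.86, 0.74, 0.85, 0.62 and 0.64. These are the highest of 20921 genes and are given as a description.

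CALB1 is 1 of the 5 markers of the loop, distal tubule and collecting duct, and that list moved in part with the CF label. CF against non-CF, 4 of the 5 were below 0, against 50.2% of all genes, and 3 had an unadjusted p under 0.05, against 6.36%. None passed adjustment. They were CALB1 with a log2 fold change of -1.40 (SE 0.345, adjusted p = 0.0636), SLC12A3, the thiazide-sensitive transporter, with -0.64 (SE 0.172, adjusted p = 0.0843) and SLC12A1 with -0.28 (SE 0.0808, adjusted p = 0.0966). UMOD, of the loop of Henle, had 0.28 (SE 0.187, adjusted p = 0.544). The 5 summed to 1350 to 2110 CPM in WT, 1170 to 2210 in HET and 1120 to 1830 in CF, and none was at 0 in any library. The part of this in the level of CCNB3 or of the other members was not tested. The markers of nephron progenitors, which divide in the outer cortex at this age, summed to 204 to 267 CPM in WT, 198 to 256 in HET and 177 to 263 in CF, with 0 of 9 at an unadjusted p under 0.05 in CF against non-CF and a median of -0.01. WT1 (98.3 CPM in WT on average), SALL1 (56.1) and PAX2, which other kidney cells make too, gave most of that sum. In HET against WT, 3 of the 9 were lower at an unadjusted p under 0.05, against 3.88% of all genes, with a median of -0.23, and 0 passed adjustment. In the same comparison the 5 erythroid markers tested were all above 0, with a median of 0.46 and 1 at an unadjusted p under 0.05, against 7.99% in either direction. Erythroid markers, since young red cells divide, summed to 83.4 to 225 CPM in WT, 141 to 204 in HET and 93.5 to 445 in CF, and immune markers to 26.4 to 49.3, 32.4 to 49.1 and 27.6 to 42.6, with 0 of either list at an unadjusted p under 0.05 in CF against non-CF. Of the ureteric tip and stroma markers, 3 of 4 were above 0 and 2 had an unadjusted p under 0.05, against 13.7% of all genes in either direction. They were WNT9B with a log2 fold change of 0.52 (SE 0.154, adjusted p = 0.11) and WNT11 with 0.30 (SE 0.128, adjusted p = 0.279). That list summed to 48.8 to 61.5 CPM in WT, 48.6 to 56.8 in HET and 48.4 to 88.0 in CF. Of the 3 endothelial markers KDR alone had an unadjusted p under 0.05, against 13.7% of all genes in either direction, with -0.26 (SE 0.0838, adjusted p = 0.149). The other 2 were above 0, at most at 0.03. The list summed to 362 to 514 CPM in WT, 385 to 472 in HET and 317 to 522 in CF. The proximal tubule markers had 4 of 6 above 0, with CUBN, the partner of LRP2, at 0.24 (SE 0.088, adjusted p = 0.198) and the others not past an unadjusted p of 0.05, and summed to 6970 to 10100 CPM in WT, 7840 to 11600 in HET and 7280 to 13800 in CF. The 3 podocyte markers summed to 655 to 904, 643 to 896 and 605 to 1040 CPM, with 0 at an unadjusted p under 0.05. The part of these lists in the members' levels was not tested. Among the erythroid markers KLF1 was at 0 in some libraries, and among the immune markers CD3E.

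**Figure D5:**
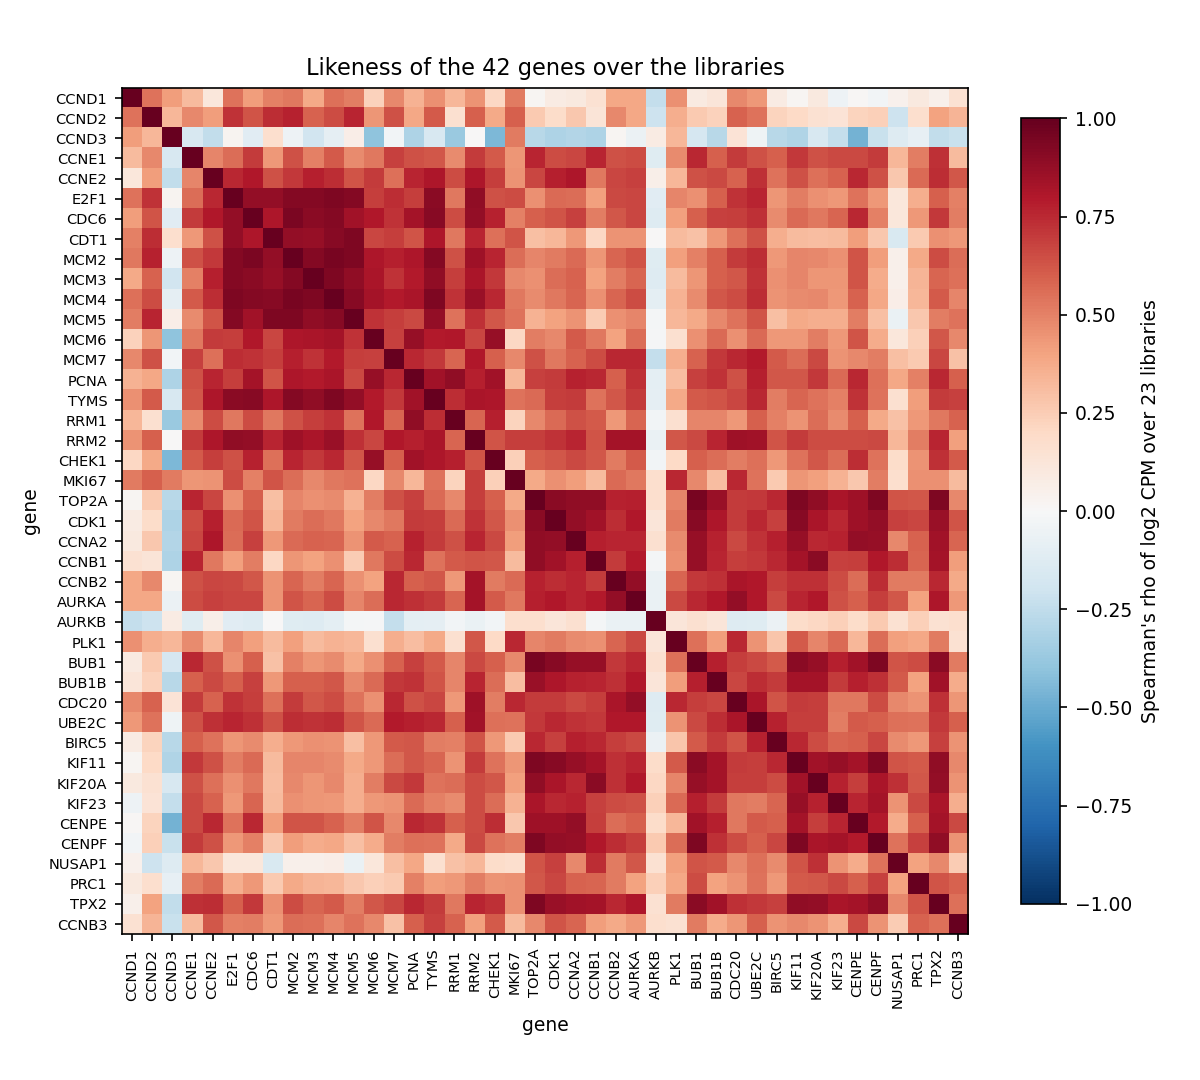
Spearman correlation of log2 CPM over the 23 libraries between each pair of the 42 genes, ordered by role on both axes, with the colour scale from -1 to 1. Replication genes and mitosis genes form 2 blocks with medians of 0.77 and 0.69, joined at 0.54, while AURKB and CCND3 stand apart from both, and CCND1 and CCND2 have medians of 0.43 and 0.61 with the replication genes.

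Across pigs, 15 of the 16 replication genes and 20 of the 22 mitosis genes had a higher median correlation with their own group than with the other, the exceptions being CCNE1 (0.61 with replication and 0.65 with mitosis), UBE2C (0.69 with mitosis and 0.73 with replication) and MKI67. The median Spearman correlation was 0.77 among the 120 pairs of replication genes, 0.69 among the 231 pairs of mitosis genes and 0.54 between the 2 groups, against 0.00 over all pairs of genes tested. The points share libraries, depth and the differences between labels and blocks. E2F1 was the replication gene most like its group, with a median of 0.88, and KIF11, the spindle motor, was the most typical of mitosis at 0.83. AURKB had a median of 0.15 with the other mitosis genes. The D cyclins differed among themselves, with a median with the replication genes of 0.61 for CCND2, 0.43 for CCND1 and -0.13 for CCND3, and with the mitosis genes of 0.23, 0.09 and -0.20. CCNB3 had a median of 0.53 with the replication genes and 0.45 with the mitosis genes, lower than the 0.75 of CCNB1 and 0.73 of CCNB2 with mitosis.

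MKI67 was less like the mitosis genes than most of them were to each other, at a median of 0.44, and had 0.49 with the replication genes. The genes most like it among all tested were MYBL2 (0.89), the transcription factor B-Myb that works with MuvB, then OGFOD3 (0.86), STK10 (0.85), ITGAL (0.83), an integrin of white blood cells, and ARF3 (0.83). MYBL2 read 16.1 ± 3.12 CPM in WT, 13.7 ± 4.08 in HET and 11.9 ± 2.26 in CF. Of 5 relations computed across the 23 pigs, MKI67 with MCM2 had Pearson's r = 0.57 (permutation p = 0.00385, adjusted p = 0.0192) and Spearman's rho = 0.56 (permutation p = 0.00638, adjusted p = 0.0319). Without the 2 libraries farthest from the median of MKI67 r was 0.53, and it was 0.75 in block A, 0.33 in block B, 0.35 within CF and 0.57 within non-CF. With library size alone r was 0.53, the adjusted permutation p of rho was 0.0596, and r was 0.73 in block A, 0.18 in block B, 0.12 within CF and 0.54 within non-CF. On log2(TPM + 0.1) r was 0.56 and rho 0.57 (adjusted permutation p = 0.0252), with r of 0.76 in block A, 0.00 in block B, -0.01 within CF and 0.59 within non-CF. The other 4 did not pass. MKI67 had r = 0.36 with CCNB3 (permutation p adjusted over the 5, 0.221), 0.24 with the progenitor gene SIX2 (0.364; 0.01 without the 2 farthest libraries) and 0.19 with ALAS2 (0.381), which makes heme in red cell precursors, while CCNB3 had -0.23 with SIX2 (0.364). Spearman's rho of these 4 was 0.32, 0.19, 0.18 and -0.21, each with an adjusted permutation p from 0.342 to 0.399. The relations with CCNB3 over all libraries hold the CF difference by which that gene was chosen, so their p decides nothing. Within CF and within non-CF, CCNB3 had r of -0.06 and 0.25 with MKI67, and of -0.57 and 0.22 with SIX2. ALAS2 had r = 0.77 with MKI67 within CF and -0.15 within non-CF. With library size alone these were 0.63 and -0.21, and on log2(TPM + 0.1) they were 0.49 and -0.24.

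A second list of 82 genes of the same pathway, 81 of them in the table and all 81 past the filter, was described in the same comparisons. CF against non-CF, 66 of the 81 were below 0, against 50.2% of all genes, with a median of -0.20. At an unadjusted p under 0.05, 42 were lower, against 6.36% of all genes, and 4 higher. By edgeR 0 passed adjustment, where 0.349% of all genes did, and by DESeq2 8 did, 7 lower and ORC4 higher, against 2.46%. Of 24 further mitosis genes all 24 were below 0 and 19 had an unadjusted p under 0.05, and of 21 further replication genes 16 were below 0 and 12 were lower at an unadjusted p under 0.05. GINS2 of the replicative helicase had -0.31 (SE 0.076, adjusted p = 0.065), MCM10, which helps to start it, -0.40 (SE 0.11, adjusted p = 0.0908), FOXM1, the activator of G2 and M genes, -0.45 (SE 0.127, adjusted p = 0.0957) and ANLN, anillin of the cleavage furrow, -0.35 (SE 0.0954, adjusted p = 0.0851). ORC4 of the origin recognition complex had 0.22 (SE 0.0585, adjusted p = 0.0843). Of 6 CDK inhibitors 3 were below 0 and 3 above, with 1 each way at an unadjusted p under 0.05. The lower was CDKN2D, p19, with -0.30 (SE 0.119, adjusted p = 0.235). The higher was CDKN1B, the inhibitor p27 that holds cells out of the cycle, which read 35.7 ± 5.17 CPM in WT, 39.0 ± 3.35 in HET and 45.3 ± 7.65 in CF, a log2 fold change of 0.28 (SE 0.0854, adjusted p = 0.124), and CDKN1A, p21, had 0.09 (SE 0.243, adjusted p = 0.921). CDKN1A read 6.54 ± 2.61 CPM in WT, 10.8 ± 4.43 in HET and 9.27 ± 3.93 in CF, with 0.72 in HET against WT (SE 0.313, adjusted p = 0.611) and 0.50 in CF against WT (SE 0.28, adjusted p = 0.436).

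CF against WT, 2 of these 81 fell at an adjusted p under 0.05, where 0.349% of all genes changed. MCM10 read 18.9 to 27.1 CPM in WT with a median of 21.6, 12.8 to 20.7 in HET with a median of 15.8 and 12.2 to 18.7 in CF with a median of 14.6. The CF and WT libraries of MCM10 did not overlap, and the log2 fold change was -0.60 (SE 0.109, adjusted p = 0.0147 by edgeR's test). GINS2 read 25.8 to 34.6 CPM in WT, 21.3 to 27.6 in HET and 17.8 to 25.6 in CF, again with no overlap of CF and WT, and fell by 0.42 on the log2 scale (SE 0.083, adjusted p = 0.0287). Without WT pig 22 neither passed, at an adjusted p of 0.0535 for MCM10 and 0.0569 for GINS2, and GINS2 also lost its call without CF pig 7 or WT pig 12, 16 or 17, at 0.0540 to 0.0805. DESeq2 called 13 of the 81 in CF against WT, against 2.75% of all genes, 12 lower and CDKN1B higher, which had 0.35 by edgeR's test (SE 0.105, adjusted p = 0.117). The count was 7 with upper-quartile factors (0.664% of all genes), with library size alone (0.597%) and with the number block as a term (0.889%), 4 with EIF1AY as a covariate (E2F8, GINS2, MCM10 and UHRF1, against 0.349%), and 0 in either block alone. HET against WT, 10 of the 81 were lower, against 3.88% of all genes, and 1 higher at an unadjusted p under 0.05, and 0 passed adjustment, where 0.00478% of all genes did. The 5 with the smallest p were MCM10 at -0.44, E2F7, a repressor of E2F targets, at -0.49, ORC3 at -0.40, WEE1, the kinase that restrains CDK1, at -0.35 and UHRF1, which keeps DNA methylation through replication, at -0.58, with adjusted p from 0.445 to 0.547.

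Per length, in TPM, the members spanned a wide range of level in WT cortex. CCND2 at 59.1, PCNA at 58.1, MCM7 at 53.8 and MCM6 at 49.2 TPM were the highest, and CDC6 at 2.09, PLK1 at 2.42, CCNE2 at 3.24 and CCNE1 at 3.85 the lowest. MKI67 stood at 10.2 and TOP2A at 27.5 TPM. Each was read in every library.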

How the data were processed

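RNA of kidney cortex from 23 newborn pigs was extracted with the RNeasy Lipid Tissue Kit, and libraries were made with the stranded RiboZero kit. Per the labels, reads were assigned with kallisto to Sscrofa11.1 transcripts, with the strand setting not given in the sources used here. The authors deposited, per library, an estimated count and a TPM for each of 77689 transcripts, with a table pairing transcripts with symbols; 64.0% of the estimated counts were not whole. Each symbol took the sum of its transcripts' estimated counts, rounded, and TPM, which the authors had deposited as per-length values, were summed for levels between genes. The filter of edgeR kept 20921 genes.

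The main test was edgeR 4.0.16 (R 4.3.3; TMM, glmQLFit and glmQLFTest), with Benjamini-Hochberg adjustment over all genes at 0.05. It was run on CF against non-CF, on a fit of the 3 labels, and on an interaction with the pig number block. CPM are TMM-scaled, and log2 CPM used a prior count of 2. Limma-voom (limma 3.58.1), DESeq2 1.42.0 and an exact Mann-Whitney U test were alternatives, and the last, on 21937 genes, is the kind of test the study's methods name. EIF1AY, of the Y chromosome, was tried as a covariate and as a split at 10 CPM, the split and its interactions being added after values were seen. The test was checked on simulated counts, with changes larger than that of any member other than CCNB3 in CF against non-CF. That check does not show how often changes of the members' size would be called. Correlations across pigs have 100000 permutations, two-sided. Sequences are from RefSeq Sscrofa11.1 (pysam 0.24.0). No label says which pigs share a litter, and each pig is 1 library. The study mated CFTR+/- pigs and used littermates in its metabolite work, so some of these pigs may share a litter. The tests took the pigs as independent.

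Genes were named by rule: CCNB3, MKI67 and TOP2A, the highest and lowest TPM of each role, the smallest p of each comparison, the extremes of the coefficient of variation and the 5 genes most like CCNB3 and MKI67. Others were named for their role or after their values were seen. Members and lists were chosen with earlier results of these data known. No columns of per-sample values were left unmapped. CDKN2A was not analysed here.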

Additional observations from a re-analysis of the deposited data

Results flagged for a closer look

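Within the 6 libraries labelled WT, BIRC5 in pig 23 was far below the others, at 8.69 CPM against 10.9 to 12.4, a gap of 0.64 of the whole range. TYMS in WT pig 22 was far above the others, at 21 CPM against 14 to 16, a gap of 0.67 of the range. These were 2 of 50 groups of values tested for a lone library, and chance gives about 1 in 20.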

How the results depend on the processing

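No paired analysis was possible because the pig numbers in the labels run from 1 to 23 with none shared between groups, so no replicate block pairs the pigs, and the number block used here is a range of pig numbers. The count of the 41 members called in CF against non-CF, 0 by edgeR, was 5 by DESeq2, 1 in block B alone, 5 in the libraries with EIF1AY under 10 CPM alone and 0 with EIF1AY as a covariate. It ranged from 0 to 3 with each library left out, 3 without HET pig 15 (TYMS, CHEK1 and CENPE, where 195 of all genes or 0.934% were called) and 1 without HET pig 13 (CENPE, where 150 or 0.72% were). In CF against WT it was 13 by DESeq2, 8 with upper-quartile factors, 6 with library size alone, 2 with a filter of 1 CPM in 6 libraries and 8 with the number block as a term, and from 0 to 6 with each library left out, 6 without CF pig 4 (203 of all genes, 0.969%) or WT pig 23 (194, 0.93%). In CF against HET it was 4 in block B alone and 0 to 0 with each library left out, as in HET against WT and the interaction of CF with block. For the related genes in CF against non-CF it was 8 by DESeq2 (7 lower and ORC4 higher), 1 in block B alone (CDK2) and 0 to 4 with each library left out, 4 without HET pig 15. All members called under any of these settings were lower in CF. The cause of these shifts was not tested. CCNB3 had a log2 fold change of -0.40 in block A and -1.14 in block B, and -0.81 (without CF pig 4) to -0.69 (without HET pig 21) with each library left out. HET against WT, MKI67 ranged from -0.40 (without HET pig 21) to -0.01 (without WT pig 12). Over all genes, CF against non-CF gave 73 calls by edgeR, 515 by DESeq2, 46 by limma-voom, 150 with the 1 CPM filter, 148 with the block as a term, 0 in block A and 473 in block B. CF against WT gave 73 by edgeR, 576 by DESeq2 (2.75%), 139 with upper-quartile factors (0.664%), 125 with library size alone (0.597%), 140 with the 1 CPM filter (0.753%) and 186 with the block as a term (0.889%). The share of calls that were lower was 30.1% in the main test, 52.5% with upper-quartile factors and 45.1% with library size alone, and in CF against WT 56.2%, 74.1% and 76.8%. With EIF1AY as a covariate CF against non-CF gave 45 calls (0.215%) and CF against WT 73. Litters and sex are not in the labels, and EIF1AY stood in for sex.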
